A study of Mus musculus with 15 samples.

Results

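The genes described here encode 9 surface proteins through which antigen-presenting cells start, sustain or restrain a T-cell response: Cd80, Cd86, Cd40, Cd83, Icosl, Cd274, Pdcd1lg2, Tnfsf8 and Tnfsf9. They were chosen by name as a fixed list of costimulatory and checkpoint molecules. The rule used no levels, but the list was drawn up with earlier results of these data known. All 9 were among the 19938 genes measured. RNA of sorted mouse bone marrow cells was hybridised to Affymetrix arrays. The Id2 KO cells came from Id2 KO Zbtb46-GFP chimeric mice, the Batf3 KO cells from Batf3 KO Zbtb46-GFP reporter mice, and the WT cells from Zbtb46-GFP chimeric mice, so that all groups carried the GFP reporter for Zbtb46, a transcription factor of classical dendritic cells (DCs). Of each genotype there were 3 arrays of Zbtb46-GFP+ c-Kit-intermediate cells, called GFP+ cells below, and 2 arrays of common dendritic cell progenitors (CDPs). No animal ages are used here, the host differed between Batf3 KO and the other genotypes, and chimeric hosts can keep some haematopoietic cells of their own. Nothing in the labels says whether arrays of a group came from separate animals, so the p-values measure the spread between arrays, which may be technical.

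T cells need a second signal beside the antigen receptor. CD80 and CD86 give it through CD28 and can also engage the inhibitory receptor CTLA-4. ICOS ligand (Icosl) binds ICOS, and the TNF-family ligands CD30L (Tnfsf8) and 4-1BBL (Tnfsf9) act on activated T cells. PD-L1 (Cd274) and PD-L2 (Pdcd1lg2) bind PD-1 and restrain the cell. CD40 is strictly a receptor, by which T cells bearing CD40 ligand drive DC maturation, and CD83 is a maturation marker that stabilises surface CD86 and MHC class II. Mature DCs carry high levels of CD80, CD86, CD40 and CD83, while progenitors in bone marrow are generally low for them.

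Of the 15 arrays, the replicate 1 arrays of the GFP+ groups, 1 per genotype, were on another scale: their median signal was 23.8 to 24.1, and that of the 12 others 100.8 to 112.1. Between Id2 KO and WT 59.4% of probe sets held identical values on these arrays, and between Batf3 KO and WT 71.7% did. Cd83, Cd274, Pdcd1lg2 and Tnfsf9 each had the same value on all 3. Levels (log2 signal) and tests below therefore use the 12 comparable arrays, 2 per group, and the 3 others are given apart. A gene's change was called at an adjusted p under 0.05 (limma, all genes, Benjamini-Hochberg). On all 15 arrays without a term for the 3, none of the 17 calls described here passed.

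In GFP+ cells the knocked-out genes followed the labels. Id2 signal averaged 8.61 in Id2 KO and 11.74 in WT, and Batf3 signal averaged 7.10 in Batf3 KO and 9.92 in WT. In CDPs neither was called lower in its knockout: Id2 averaged 6.52 in Id2 KO and 7.54 in WT, and Batf3 7.11 in Batf3 KO and 7.14 in WT, so the CDP labels could not be checked in this way. Within Id2 KO, Id2 signal was higher in GFP+ cells than in CDPs (8.61 against 6.52, adjusted p = 0.00259). Flt3, a receptor that marks DC progenitors, lay between 11.29 and 11.61 in all 6 groups. Zbtb46 signal was 7.08 in WT GFP+ cells and 6.0 in WT CDPs (adjusted p = 0.000636), but 6.02 in Id2 KO GFP+ cells against 5.82 in Id2 KO CDPs, and 6.0 in Batf3 KO GFP+ cells against 5.85 in Batf3 KO CDPs. The transcript of the gene that the reporter reads was therefore little above the CDP level in either knockout. Kit signal was higher in GFP+ cells than in CDPs of each genotype, with 11.21 in GFP+ cells and 9.71 in CDPs of WT. The sex-linked transcript Xist differed between the genotypes in GFP+ cells, at 5.57 in Id2 KO, 5.49 in Batf3 KO and 12.10 in WT. In CDPs it read 5.35, 5.39 and 12.41 in the same order, so sex and genotype cannot be told apart at either stage. All 9 ligand genes are autosomal, and an effect of sex on them was not tested. In bulk samples, fewer cells of a type and less RNA per cell cannot be told apart either.

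Proximal promoters were available for 5 of the 9 genes from RefSeq (GRCm38.p6, 250 bases before to 50 after the start). Those of Cd80, Icosl and Tnfsf8 are shown because these genes were called in at least 1 stage comparison. Capitals mark matches, on either strand, to the AP-1 motif TGANTCA bound by BATF3 paired with JUN proteins, the E-box CANNTG bound by the E proteins that ID2 restrains, the NF-kappaB motif, the interferon-response element and the ETS-IRF composite motif.
Cd80, chr16:38458683-38458982, plus strand: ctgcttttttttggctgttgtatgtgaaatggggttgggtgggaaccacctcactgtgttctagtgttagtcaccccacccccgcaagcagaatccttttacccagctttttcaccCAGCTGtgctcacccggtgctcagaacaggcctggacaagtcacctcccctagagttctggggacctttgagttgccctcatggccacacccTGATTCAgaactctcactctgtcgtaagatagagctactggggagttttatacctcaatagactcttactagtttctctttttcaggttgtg
Icosl, chr10:78069118-78069417, plus strand: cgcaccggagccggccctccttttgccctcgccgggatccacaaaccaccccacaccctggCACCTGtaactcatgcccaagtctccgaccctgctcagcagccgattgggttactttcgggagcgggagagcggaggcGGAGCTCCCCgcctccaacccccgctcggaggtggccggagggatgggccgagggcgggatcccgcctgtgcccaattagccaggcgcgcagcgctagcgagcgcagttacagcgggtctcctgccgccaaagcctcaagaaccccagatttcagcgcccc
Tnfsf8, chr4:63861235-63861534, minus strand: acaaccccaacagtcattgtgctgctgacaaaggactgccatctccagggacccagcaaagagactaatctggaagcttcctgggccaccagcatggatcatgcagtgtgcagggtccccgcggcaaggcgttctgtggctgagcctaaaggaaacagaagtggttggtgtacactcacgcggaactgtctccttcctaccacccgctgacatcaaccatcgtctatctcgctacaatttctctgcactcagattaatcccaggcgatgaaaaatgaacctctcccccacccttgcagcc

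The Cd80 promoter held 1 AP-1 match, at position -42 from the start, and 1 E-box. The Icosl promoter held 1 E-box and 1 NF-kappaB match, at position -111. The Tnfsf8 promoter held none of the motifs in this window. Cd274 had 2 E-boxes and Pdcd1lg2 had 3, with 1 NF-kappaB match, in windows not printed here. An AP-1 match occurred in 7.81% of all 32841 promoters of this length, an NF-kappaB match in 8.46%, the interferon-response element in 3.44%, the ETS-IRF composite in 2.72%, and an E-box in 72.3%. These are descriptions of letters, and no binding was measured.

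**Figure D1:**
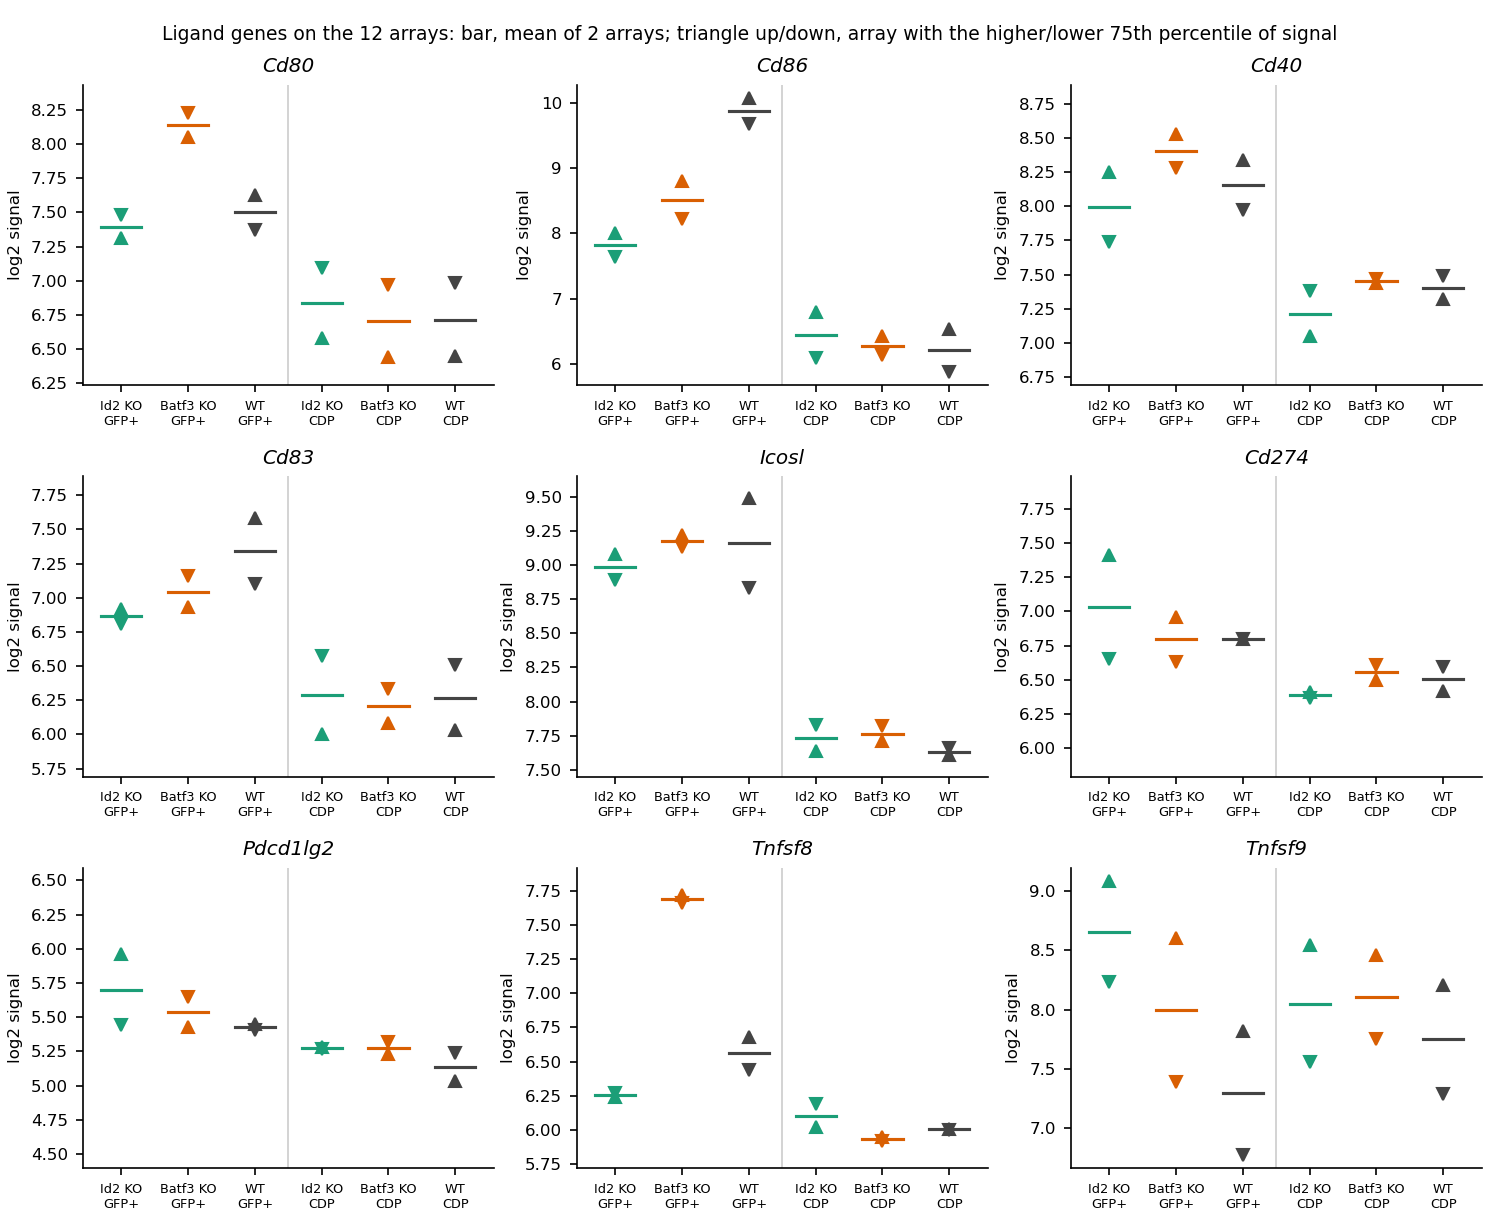
Log2 signal (vertical axis) of each of the 9 genes on the 12 arrays (symbols), by genotype and stage, with the mean of 2 arrays as a bar. Upward and downward triangles are the arrays with the higher and the lower 75th percentile of signal in each group. Cd86 reaches 9.67 and 10.07 in WT GFP+ cells, and Tnfsf8 stands at 7.72 and 7.66 in Batf3 KO GFP+ cells, above all other groups.

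The first question was which of these genes differ between GFP+ cells and CDPs. In WT, 5 of the 9 were called higher in GFP+ cells and none lower: Cd86, Icosl, Cd83, Cd40 and Tnfsf8. Over all genes 4.71% were called higher and 11.1% in either direction. The median difference was 0.75 for the 9 genes, against 0.03 for all genes. Cd86 led the group, and Tnfsf9, Cd274 and Pdcd1lg2 were not called.

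Cd86 had a log2 signal of 9.67 and 10.07 on the WT GFP+ arrays, against 6.53 and 5.88 on the WT CDP arrays. All GFP+ arrays of every genotype lay above all CDP arrays. The difference in WT was 3.67 (SE 0.30, adjusted p = 2.23e-05), a 12.7-fold higher signal. In Batf3 KO, Cd86 stood at 8.80 and 8.22 in GFP+ cells and 6.42 and 6.13 in CDPs, a difference of 2.23 (adjusted p = 0.001). In Id2 KO it stood at 8.0 and 7.63 in GFP+ cells and 6.79 and 6.09 in CDPs, a difference of 1.37 (adjusted p = 0.0175). The gene thus passed the test in all 3 genotypes, with fold changes of 2.59 in Id2 KO, 4.70 in Batf3 KO and 12.7 in WT. The Id2 KO call was lost on leaving out Id2 KO CDP replicate 2 (adjusted p = 0.108) or Id2 KO GFP+ replicate 2 (0.159) or replicate 3 (0.0544).

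Its partner Cd80, which shares the receptors CD28 and CTLA-4 and lies with Cd86 on chromosome 16, was called in 1 genotype. Cd80 stood at 7.31 and 7.48 in Id2 KO GFP+ cells, 8.05 and 8.23 in Batf3 KO GFP+ cells and 7.37 and 7.63 in WT GFP+ cells. In CDPs it stood at 6.58 and 7.09 in Id2 KO, 6.44 and 6.97 in Batf3 KO and 6.45 and 6.98 in WT. GFP+ arrays were above CDP arrays throughout, and the Batf3 KO GFP+ arrays were the highest. Only the Batf3 KO difference was called, at 1.43 (SE 0.24, adjusted p = 0.00375). The differences were 0.56 in Id2 KO (adjusted p = 0.247) and 0.79 in WT (adjusted p = 0.0564). Without WT CDP replicate 2 the WT difference was 1.05 (adjusted p = 0.0354). The array carries another Cd80 probe set, examined after the data were seen, on which the step was larger: 1.27 in Id2 KO (adjusted p = 0.00915), 2.45 in Batf3 KO (0.000156) and 1.81 in WT (0.00063). The probe sets disagree by more than 1.5 times in the size of the step but not in its sign.

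Icosl gave a step of similar size in the 3 genotypes. It had 9.08 and 8.89 in Id2 KO GFP+ cells against 7.64 and 7.83 in Id2 KO CDPs. In Batf3 KO it had 9.22 and 9.13 in GFP+ cells against 7.71 and 7.82 in CDPs. In WT it had 8.83 and 9.49 in GFP+ cells against 7.61 and 7.66 in CDPs. No GFP+ array overlapped a CDP array. The differences were 1.25 in Id2 KO (adjusted p = 0.00259), 1.40 in Batf3 KO (0.00118) and 1.53 in WT (0.000436), each with an SE of 0.19, and all 3 kept their call whichever array was left out. The interaction, which asks whether the step differs between genotypes, was -0.28 for Id2 KO (95% interval -0.87 to 0.32) and -0.12 for Batf3 KO (-0.72 to 0.47).

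Cd40 was called in all 3 genotypes with smaller steps. It lay between 7.74 and 8.53 on the GFP+ arrays and between 7.05 and 7.49 on the CDP arrays, without overlap. The step was 0.78 in Id2 KO (adjusted p = 0.0401), 0.95 in Batf3 KO (0.0141) and 0.75 in WT (0.0317). These calls were close to the threshold. In Id2 KO the call ended without CDP replicate 1 (adjusted p = 0.261) or GFP+ replicate 2 (0.345). In Batf3 KO it ended without CDP replicate 1 (0.099), CDP replicate 2 (0.0734) or GFP+ replicate 2 (0.107). In WT it ended without CDP replicate 1 (0.197), CDP replicate 2 (0.0676) or GFP+ replicate 3 (0.179).

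Cd83 lay between 6.81 and 7.58 on the GFP+ arrays and between 6.0 and 6.57 on the CDP arrays. Its step was called in WT, at 1.07 (SE 0.23, adjusted p = 0.012), and not in Id2 KO (0.57, adjusted p = 0.216) or Batf3 KO (0.83, 0.0552). The interactions were -0.5 for Id2 KO (95% interval -1.22 to 0.22) and -0.24 for Batf3 KO (-0.96 to 0.48), so a difference between genotypes was not shown. The WT call ended without CDP replicate 1 (adjusted p = 0.117) or GFP+ replicate 3 (0.0892).

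Tnfsf8, the ligand of CD30, was highest in Batf3 KO GFP+ cells. It had 6.24 and 6.27 in Id2 KO GFP+ cells, 7.72 and 7.66 in Batf3 KO GFP+ cells and 6.44 and 6.68 in WT GFP+ cells. In CDPs all arrays lay between 5.92 and 6.19. The step was 0.15 in Id2 KO (adjusted p = 0.738), 1.76 in Batf3 KO (SE 0.13, adjusted p = 1.88e-05) and 0.56 in WT (adjusted p = 0.0156). The WT call ended without CDP replicate 1 (adjusted p = 0.0795), CDP replicate 2 (0.066) or GFP+ replicate 3 (0.104), while the Batf3 KO call stayed in each such fit.

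The PD-1 ligands moved little. Cd274 lay between 6.63 and 7.41 on the GFP+ arrays and between 6.37 and 6.61 on the CDP arrays. Pdcd1lg2 lay between 5.41 and 5.96 on the GFP+ arrays and between 5.03 and 5.32 on the CDP arrays. Both genes were higher in GFP+ cells on every array, yet neither passed the test in any genotype. The Cd274 step was 0.64 in Id2 KO (95% interval 0.17 to 1.11), 0.24 in Batf3 KO (-0.23 to 0.71) and 0.29 in WT (-0.17 to 0.76). The highest Cd274 and Pdcd1lg2 values, 7.41 and 5.96, came from the same array, Id2 KO GFP+ replicate 2. Without Id2 KO GFP+ replicate 3 the Id2 KO step of Cd274 was 1.02 (adjusted p = 0.015). The genes lie on chromosome 19 with 1 annotated gene and 0 protein-coding genes between them. Pdcd1lg2 was the dimmest of the set and was the only one to fail a filter on dim genes.

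Tnfsf9, the ligand of 4-1BB, did not follow the others. It had 9.08 and 8.23 in Id2 KO GFP+ cells, 8.60 and 7.39 in Batf3 KO GFP+ cells and 6.78 and 7.82 in WT GFP+ cells. In CDPs it had 8.54 and 7.56 in Id2 KO, 8.46 and 7.75 in Batf3 KO and 8.21 and 7.29 in WT. Stages overlapped in every genotype, and the arrays of a group were 0.71 to 1.21 apart. The step was 0.61 in Id2 KO, -0.12 in Batf3 KO and -0.45 in WT (SE 0.52 each, no call), with 95% intervals of -0.53 to 1.75, -1.26 to 1.02 and -1.59 to 0.69 in that order.

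**Figure D2:**
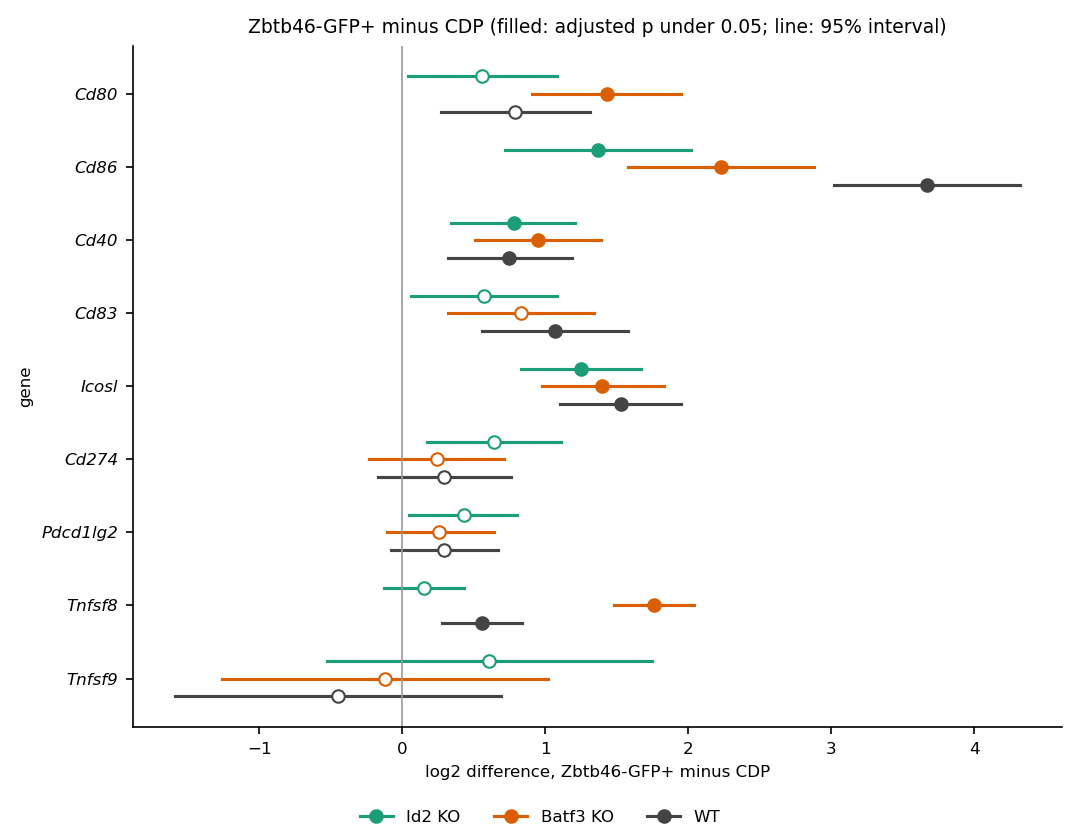
Log2 difference of GFP+ cells minus CDPs (horizontal axis) for each gene (vertical axis) in Id2 KO, Batf3 KO and WT, with 95% intervals as lines and filled points where the adjusted p was under 0.05. Cd86 lies at 1.37 in Id2 KO, 2.23 in Batf3 KO and 3.67 in WT, Tnfsf8 is far higher in Batf3 KO than in the others, and the Tnfsf9 intervals all cross 0.

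In Batf3 KO, 5 of 9 genes were called higher and none lower between GFP+ cells and CDPs (3.87% of all genes higher, 7.18% in either direction), and in Id2 KO 3 were called higher and none lower (3.84% and 6.82%). The medians of the 9 were 0.61 in Id2 KO and 0.95 in Batf3 KO, with 0.01 for all genes in each. Centring arrays on their 75th percentile moved the median of all genes in WT by 0.11, and split the WT calls over all genes into 1197 higher and 996 lower, against 940 and 1272 without it. The WT calls of the 9 genes were 5 under both. Without WT CDP replicate 1, only 2 of the 9 genes were called in WT, and without Id2 KO GFP+ replicate 2 only 1 in Id2 KO.

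The cells compared also differed in their lineage markers. The 10 cDC1 markers had 4 called higher in the Id2 KO step, 3 in the Batf3 KO step and 9 in the WT step, with a summed signal of 22200 to 26400 in WT GFP+ cells and 7830 to 9570 in WT CDPs. In the knockouts that sum was 11000 to 11300 in Id2 KO GFP+ cells against 8770 to 8850 in Id2 KO CDPs, and 11700 to 11900 in Batf3 KO GFP+ cells against 9360 to 10500 in Batf3 KO CDPs. Of the 9 cDC2 markers 4 were called higher in Id2 KO, 3 in Batf3 KO and 5 in WT, where 1 was lower. The pDC markers, 8 of 10 measured, summed to 16600 to 18300 in Id2 KO GFP+ cells and 6430 to 7720 in Id2 KO CDPs, with 6 called higher, against 1 in each of the other genotypes.

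Genes of other lineages also differed between the stages. Of 10 neutrophil and granule genes 4 were called higher and 3 lower in Id2 KO, 4 and 3 in Batf3 KO and 0 and 4 in WT. Their sum was 42800 to 44300 in Id2 KO GFP+ cells and 27000 to 38500 in Id2 KO CDPs, but 16900 to 17900 in WT GFP+ cells and 25200 to 28200 in WT CDPs. Of 8 measured monocyte and macrophage markers 1 was called higher and 2 lower in Id2 KO, 2 and 2 in Batf3 KO and 2 and 2 in WT. B-lineage markers, 9 of 10 measured, summed to 784 to 811 in WT GFP+ cells and 1140 to 1330 in WT CDPs. Among them Vpreb1 averaged 6.33 in WT GFP+ cells and 8.48 in WT CDPs, while Cd79a lay between 4.71 and 5.22 and Ms4a1 between 4.42 and 5.71 in all group means. For T, NK and innate lymphoid genes, 11 of 12 measured, the sum was 632 to 633 in WT GFP+ cells and 527 to 528 in WT CDPs. On these arrays no marker has a true 0. What part the makeup of the cells had in the steps was not tested.

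The second question was what loss of Batf3 or Id2 did to these genes in GFP+ cells. Between Id2 KO and WT 1 of 9 genes was called, Cd86, lower in the knockout (0.717% of all genes lower, 1.81% in either direction). Between Batf3 KO and WT 1 of 9 was called, Tnfsf8, higher in the knockout (0.11% of all genes higher, 0.336% in either direction). At an unadjusted p under 0.05 there were 3 of the 9 genes in each comparison, against 9.29% of all genes in Id2 KO and 4.45% in Batf3 KO. The knockout comparisons share the WT arrays.

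Cd86 had 8.0 and 7.63 in Id2 KO GFP+ cells, against 9.67 and 10.07 in WT GFP+ cells. The groups did not overlap. Cd86 fell by 2.06 on the log2 scale in Id2 KO (SE 0.30, adjusted p = 0.00469), a signal 4.17-fold lower. The difference was -2.08 between the arrays with the higher 75th percentile and -2.04 between those with the lower. Without Id2 KO GFP+ replicate 3 it was -1.87, with an adjusted p of 0.0658. In Batf3 KO the arrays read 8.80 and 8.22, also below both WT arrays, with a difference of -1.36 (95% interval -2.01 to -0.71) that was not called (adjusted p = 0.137). It was called after centring on the 75th percentile, at -1.41 (adjusted p = 0.025).

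The interaction of Cd86 with stage was -2.30 for Id2 KO (SE 0.42, adjusted p = 0.0527) and -1.44 for Batf3 KO (adjusted p = 1). For the Id2 KO interaction 0 of 9 genes were called in limma (0.321% of all genes called), and 2 had an unadjusted p under 0.05 (4.81% of all genes). The Cd86 interaction passed the threshold in 7 of 19 other settings, including quantile normalization (adjusted p = 0.0308) and the fit without Id2 KO CDP replicate 2 (-2.65, adjusted p = 0.035). In CDPs, Cd86 was at 6.79 and 6.09 in Id2 KO, 6.42 and 6.13 in Batf3 KO and 6.53 and 5.88 in WT, overlapping throughout.

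Tnfsf8 had 7.72 and 7.66 in Batf3 KO GFP+ cells, against 6.44 and 6.68 in WT GFP+ cells. The groups were apart by more than the spread within either. The difference was 1.13 (SE 0.13, adjusted p = 0.00207), a 2.19-fold higher signal, and it was called in each fit with an array left out. The interaction with stage was 1.20 (SE 0.18, adjusted p = 0.0406; 0.015% of all genes called higher and 0.0953% in either direction), lost with each of the 8 arrays left out in turn (adjusted p 0.0514 to 0.289). In Id2 KO the arrays read 6.24 and 6.27, both below WT, with a difference of -0.31 that was not called (adjusted p = 0.444). Id2 KO and Batf3 KO therefore lay on opposite sides of WT. The direct comparison of Id2 KO with Batf3 KO gave -1.44 (adjusted p = 0.000516), the 1 call among the 9 genes there (0.331% of all genes lower, 0.592% in either direction).

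Cd80 shared the high level of Batf3 KO GFP+ cells, with a difference of 0.64 to WT (95% interval 0.12 to 1.16, adjusted p = 0.797), and in Id2 KO minus Batf3 KO it gave -0.74 (adjusted p = 0.399). Neither passed, though a replicate block on the 12 arrays gave the difference between the knockouts an adjusted p of 0.0201. Tnfsf9 was higher in Id2 KO than in WT on both arrays (9.08 and 8.23 against 6.78 and 7.82), by 1.36 with an SE of 0.52 (adjusted p = 0.367). The same difference was 1.27 between arrays with the higher 75th percentile and 1.45 between those with the lower.

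For Cd40, Icosl, Cd274 and Pdcd1lg2, the knockout and WT arrays overlapped in GFP+ cells in both comparisons. The 95% intervals for Id2 KO minus WT were -0.60 to 0.27 for Cd40, -0.59 to 0.25 for Icosl, -0.24 to 0.70 for Cd274 and -0.10 to 0.65 for Pdcd1lg2. Those for Batf3 KO minus WT were -0.19 to 0.68, -0.41 to 0.43, -0.47 to 0.46 and -0.26 to 0.49 in the same gene order. Cd83 lay below WT in Id2 KO on both arrays (6.92 and 6.81 against 7.10 and 7.58), without a call (-0.48, adjusted p = 0.589).

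**Figure D3:**
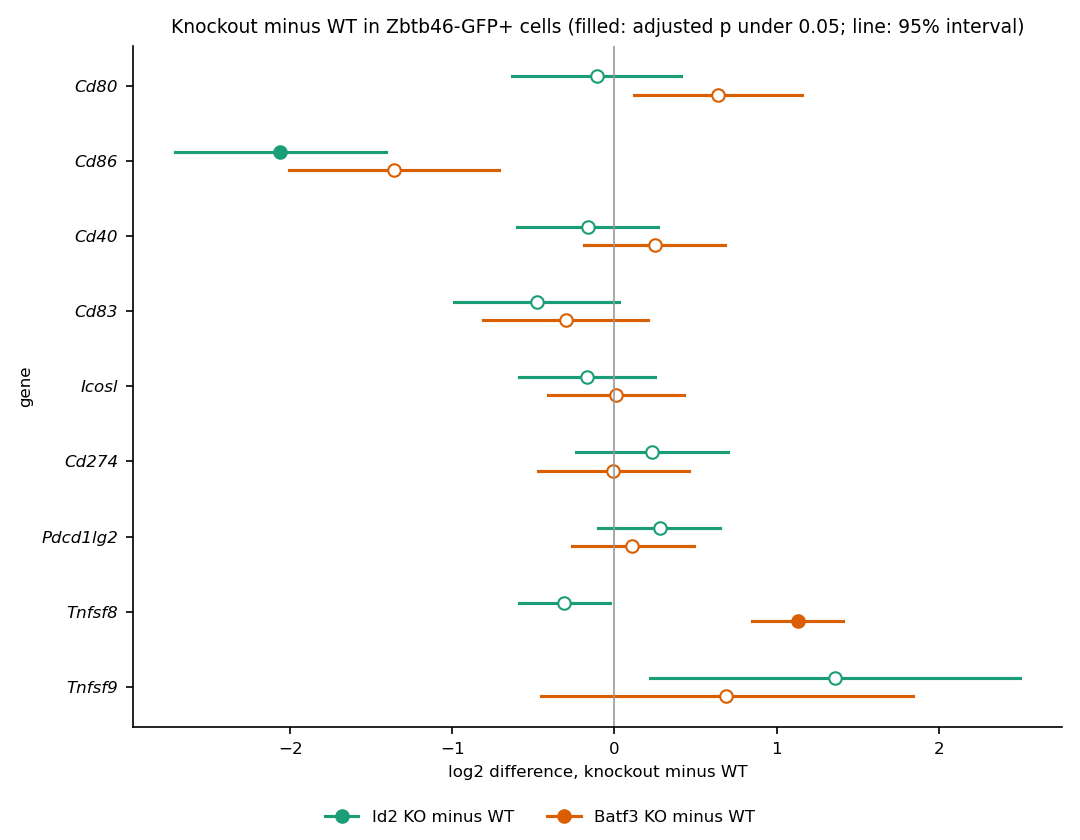
Log2 difference of Id2 KO minus WT and of Batf3 KO minus WT in GFP+ cells (horizontal axis) for each gene (vertical axis), with 95% intervals as lines and filled points where the adjusted p was under 0.05. Cd86 lies left of 0 in both knockouts and is called in Id2 KO (-2.06); Tnfsf8 is called in Batf3 KO (1.13).

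Sums of DC subset markers differed in the same comparisons, but not every list gave calls in both knockouts. Of all genes, 1.81% were called in either direction in Id2 KO and 0.336% in Batf3 KO. The cDC1 markers summed to 11000 to 11300 in Id2 KO GFP+ cells, 11700 to 11900 in Batf3 KO GFP+ cells and 22200 to 26400 in WT GFP+ cells, with 8 and 7 of 10 called lower in Id2 KO and Batf3 KO. In both knockouts Irf8 made up most of the sum. The median log2 difference of the 10 markers to WT was -2.17 in Id2 KO and -2.05 in Batf3 KO. The cDC2 markers, all 9 measured, summed to 12100 to 13900 in Id2 KO, 13400 to 16300 in Batf3 KO and 5410 to 10100 in WT. Only 1 of them was called higher in Id2 KO and 0 in Batf3 KO. The pDC markers, 8 of 10 measured, summed to 16600 to 18300 in Id2 KO, 6120 to 9430 in Batf3 KO and 3990 to 5670 in WT. Of these 6 were called higher in Id2 KO and 0 in Batf3 KO. Granule genes of neutrophils summed to 42800 to 44300 in Id2 KO, 23000 to 31100 in Batf3 KO and 16900 to 17900 in WT. Of the 10 genes 3 were called higher in Id2 KO and 1 in Batf3 KO. Monocyte and macrophage markers summed to 5620 to 5690 in Id2 KO, 6220 to 6870 in Batf3 KO and 6080 to 6410 in WT, with 2 of 8 called higher in each knockout and 1 lower in Id2 KO. Among them Adgre1, the gene most like Tnfsf8 over the arrays, averaged 7.22 in Id2 KO, 8.90 in Batf3 KO and 7.34 in WT. Basophil, eosinophil and mast cell markers, all 8 measured, summed to 2260 to 2950 in Id2 KO, 1160 to 1340 in Batf3 KO and 583 to 1180 in WT. Of them 1 was called higher in Id2 KO and 0 in Batf3 KO. In CDPs the same sum was 1520 to 4190 in Id2 KO, 758 to 1300 in Batf3 KO and 830 to 1290 in WT. B-lineage markers summed to 1300 on both Id2 KO arrays, 938 to 1190 in Batf3 KO and 784 to 811 in WT. Blnk, which had the largest difference of them between Id2 KO and WT, averaged 8.40, 7.02 and 6.42. The median log2 difference of the list to WT was 0.27 in Id2 KO and 0.20 in Batf3 KO. Among the 9 measured, 1 was called higher in Id2 KO and 0 in Batf3 KO. The part of these markers in the differences of Cd86 and Tnfsf8 was not tested.

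In CDPs none of the 9 genes was called in limma for Id2 KO or Batf3 KO against WT, with 0.0251% and 0.0502% of all genes called. None had an unadjusted p under 0.05, against 0.632% of all genes in Id2 KO and 1.29% in Batf3 KO. Over the other 11 settings run on all arrays of a group, the count was also 0 in both. The largest differences were 0.30 in Id2 KO and 0.36 in Batf3 KO, both for Tnfsf9, with 95% intervals of -0.84 to 1.44 and -0.78 to 1.5. For the other 8 genes the differences ran from -0.19 to 0.24.

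**Figure D4:**
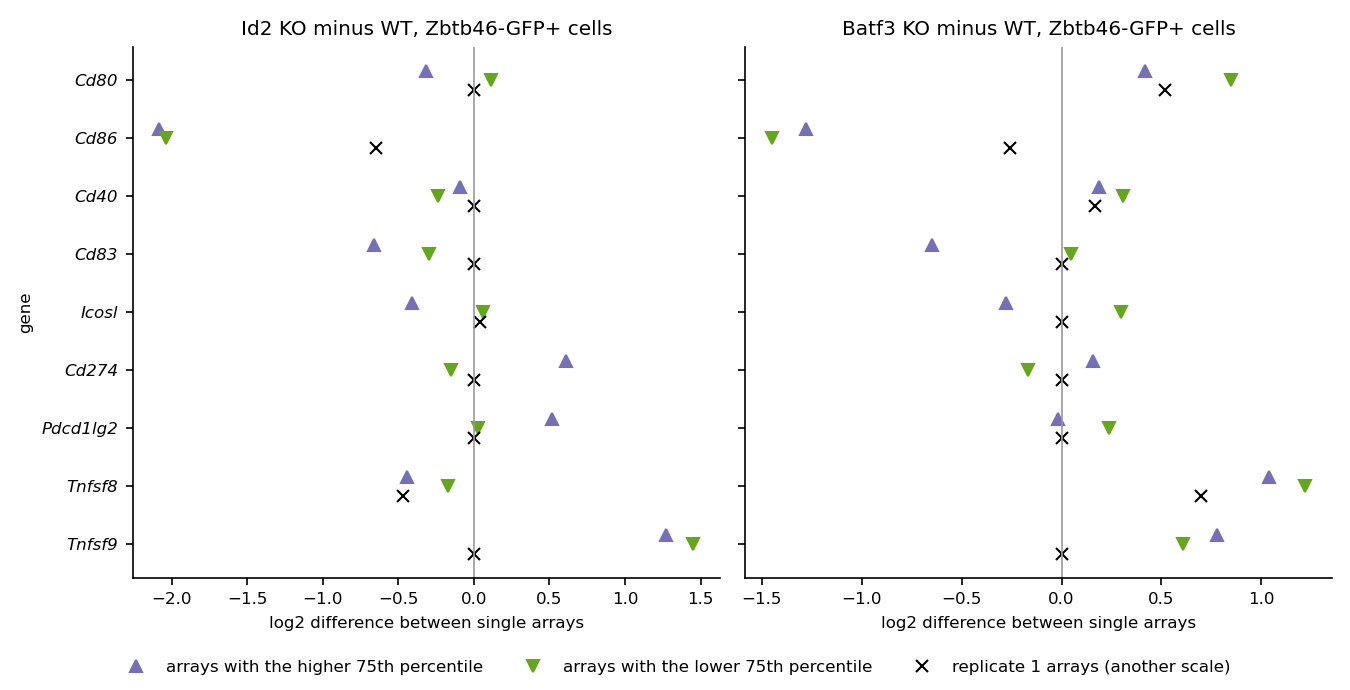
Log2 difference of Id2 KO minus WT (left) and Batf3 KO minus WT (right) between single GFP+ arrays (horizontal axis) for each gene: arrays with the higher 75th percentile, arrays with the lower, and the replicate 1 arrays on another scale. Cd86 is left of 0 and Tnfsf8 in Batf3 KO right of 0 in all 3 comparisons.

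The replicate 1 arrays gave the same sign for the leading genes, with smaller sizes and no test. On them Cd86 read 5.77 in Id2 KO, 6.15 in Batf3 KO and 6.41 in WT, which gives -0.65 and -0.26. Tnfsf8 read 5.09 in Id2 KO, 6.25 in Batf3 KO and 5.56 in WT. Cd80 was 0.52 higher in Batf3 KO than in WT and equal in Id2 KO and WT. Among the 12 arrays, Tnfsf9 and Cd86 were higher on the array with the higher 75th percentile in 6 of 6 groups, by 0.71 to 1.21 and by 0.29 to 0.71. Cd80 was so in 1 of 6.

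Arrays that shared the higher or the lower 75th percentile deviated together from their group means: in all 30 such pairs the residual correlation over genes was positive, at 0.35 to 0.68. These sets were defined from the data, not the labels, which favours a positive sign. With 2 arrays per group the deviations are mirror images, so each correlation occurs once in either set. As the block was chosen from the same data, its p-values cannot be taken at face value. With the set as a block 15 further differences of the 9 genes were called, at the same sizes. For Cd86 these were Batf3 KO against WT in GFP+ cells (-1.36, adjusted p = 0.000118), Id2 KO against Batf3 KO (-0.70, 0.00819), and the interactions of Id2 KO (-2.30, 0.000113) and Batf3 KO (-1.44, 0.00372). For Tnfsf9 they were Id2 KO against WT (1.36, adjusted p = 4.63e-05), Batf3 KO against WT (0.70, 0.0151), Id2 KO against Batf3 KO (0.67, 0.0109), the Id2 KO interaction (1.06, 0.00758), and the steps in Id2 KO (0.61, 0.0041) and WT (-0.45, 0.0162). For Cd80 they were the steps in Id2 KO (0.56, adjusted p = 0.0475) and WT (0.79, 0.00583) and Id2 KO against Batf3 KO (-0.74, 0.0465). The others were the steps of Cd83 in Batf3 KO (0.83, adjusted p = 0.0145) and Cd274 in Id2 KO (0.64, 0.036). Over all genes this block also raised the counts, to 4829 for the WT step, against 2212 without it.

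Groups were also sorted by their observed means within a gene, and gaps between neighbours set beside unadjusted 95% half-widths. A gap beyond the width is therefore not a call. Cd86 had the order WT GFP+, Batf3 KO GFP+, Id2 KO GFP+ and then the CDPs. Each of the first 3 stood above the next by more than 0.65, the half-width, and the 3 CDP groups did not. In limma its gaps between WT and Batf3 KO (adjusted p = 0.137) and between Batf3 KO and Id2 KO (0.822) were not called. Tnfsf8 had the order Batf3 KO GFP+, WT GFP+, Id2 KO GFP+ and then the CDPs, with gaps of 1.13 and 0.31 above a half-width of 0.28. The gap of 0.31 was not called in limma (adjusted p = 0.444). For Cd80 only Batf3 KO GFP+ stood beyond its neighbour among GFP+ groups (0.64 against 0.52), without a call in limma (adjusted p = 0.797). For Cd40, Cd83 and Icosl the gaps among the GFP+ groups stayed within these widths, as did those among the CDP groups. The lowest GFP+ group, Id2 KO, stood beyond the next CDP group for each of them. These gaps were 0.54 against a half-width of 0.44, 0.57 against 0.51 and 1.22 against 0.42. That of Cd83 is its Id2 KO step, which was not called in limma (adjusted p = 0.216). No neighbouring groups of Cd274, Pdcd1lg2 or Tnfsf9 differed beyond the width.

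The genes whose level was most like each member's over the 12 arrays were found among 1505 autosomal genes that span at least 1 log2 unit. The coefficients are descriptions over 12 arrays that share the contrast of stages. For Cd86 they were Naaa (r = 0.996), an amidase listed as a cDC1 marker, Efhd2 (0.984) and Dusp10 (0.984). For Icosl they were Fgfr1 (0.994), Ptprc (0.992) and Slfn5 (0.986). Cd40 was most like Relb (0.974), the non-canonical NF-kappaB subunit, then Fbrsl1 and Scimp (0.968 each). Cd83 was most like Klf2 (0.953) and Lfng (0.95), Cd80 like Wfdc18 (0.961) and Slc6a20a (0.957), Tnfsf8 like Adgre1 (0.96), a macrophage surface marker, and Tnfsf9 like Gadd45b (0.924). Cd274 and Pdcd1lg2 spanned less than 1.

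Some genes that carry or answer the CD40 signal were called higher in the same stage comparisons as Cd40. Of 18 genes measured out of 22 listed for CD40 and NF-kappaB signalling, 3 were called higher in Id2 KO, 6 in Batf3 KO and 7 in WT between GFP+ cells and CDPs, and none lower (3.84%, 3.87% and 4.71% of all genes higher). Relb was called in each, by 1.12, 1.40 and 1.23 in that order of genotypes. In WT the others with large steps were Traf1, an adaptor of TNF receptors, at 2.04 (adjusted p = 0.0316) and Nfkb2 at 1.24 (0.00645). These WT calls rest on few arrays: without WT GFP+ replicate 3 none of the list was called in WT (Relb at 0.056, Nfkb2 at 0.0555, Traf1 at 0.19), and without Id2 KO CDP replicate 1 none in Id2 KO. In Batf3 KO, Traf5 (1.21, adjusted p = 0.00204) and Rel (0.96, 0.00129) kept their calls in every fit with 1 array left out. The median of the list was 0.51 in Id2 KO, 0.72 in Batf3 KO and 0.59 in WT, against medians of all genes of 0.01, 0.01 and 0.03. None was called between genotypes in GFP+ cells.

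Receptors that bind such ligands on T cells were measured too, all 15 listed. Cd226, an activating receptor for nectin-family ligands, was 4.80 higher in WT GFP+ cells than in WT CDPs (10.61 against 5.81, adjusted p = 2.89e-08). In Id2 KO GFP+ cells it was lower than in WT GFP+ cells (8.34 against 10.61), by a log2 difference of -2.27 (adjusted p = 4.45e-05). Btla, an inhibitory receptor for HVEM, was higher in GFP+ cells by 2.30 in Id2 KO, 1.96 in Batf3 KO and 2.91 in WT. Cd27 was lower in GFP+ cells, with log2 differences of -1.51, -2.45 and -3.11. In all, 4 of the 15 were called higher and 2 lower in Id2 KO, 3 and 2 in Batf3 KO and 4 and 2 in WT (6.82%, 7.18% and 11.1% of all genes in either direction). The receptors of the ligands studied here gave 1 call per genotype, Cd28, which was lower, with log2 differences of -0.75 in Id2 KO, -0.89 in Batf3 KO and -0.72 in WT.

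Other listed ligands gave calls in both directions. Of 16 further ligands listed with the B7 and immunoglobulin families, 2 were called higher and 1 lower in Id2 KO. The counts were 3 and 2 in Batf3 KO and 3 and 2 in WT. Of all genes 6.82%, 7.18% and 11.1% were called in either direction, in that order of genotypes. The lower calls were Lgals9 in each genotype and Hmgb1 in Batf3 KO and WT. Neither is a B7 or immunoglobulin-family protein. Cd200, an inhibitory ligand, differed by 1.80 in Id2 KO, 0.88 in Batf3 KO and 1.86 in WT, and Lgals9, the galectin ligand of TIM-3, by -0.67, -0.67 and -1.08. Of the Batf3 KO calls in that list, only Cd200 and Lgals9 stayed in any fit with an array left out, each in 1 of 4. None stayed without Batf3 KO CDP replicate 1. Without WT CDP replicate 2 the WT count was 2, and without Id2 KO GFP+ replicate 2 the Id2 KO count was 1. Of 14 measured TNF-family ligands out of 16, 1 was called higher and 2 lower in Id2 KO, 2 and 0 in Batf3 KO and 2 and 1 in WT, to be read against the same shares of all genes. Ltb, which encodes lymphotoxin beta, was higher by 1.67, 1.95 and 1.68 and kept its call in every such fit. Tnfsf14, the ligand LIGHT, was lower in Id2 KO than in Batf3 KO GFP+ cells, with a log2 difference of -0.97 (adjusted p = 0.0103). That call stayed in only 1 of the 4 fits with an array left out.

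The list of DC maturation genes did not move as a block. Of 25 measured out of 27, 6 were called higher and 1 lower in Id2 KO, 3 and 2 in Batf3 KO and 2 and 3 in WT (6.82%, 7.18% and 11.1% of all genes in either direction). In all, these counts ran from 3 to 4, 2 to 4 and 4 to 5 with an array left out. Il12a, a subunit of IL-12, was lower in GFP+ cells, with log2 differences of -2.33 in Id2 KO, -2.61 in Batf3 KO and -2.77 in WT. Marcks was higher by 1.24, 1.05 and 1.61. Among 18 of 19 measured genes for turnover and induction of the ligands, 6 were called higher and 1 lower in Id2 KO, 4 and 1 in Batf3 KO and 5 and 0 in WT, beside the same shares of all genes. With an array left out, 1 to 3 were called in Id2 KO, 1 to 3 in Batf3 KO and 4 to 7 in WT. Jak2, the kinase of interferon-gamma and cytokine receptors, was higher by 1.77, 1.27 and 1.52. Ifngr1, a chain of the interferon-gamma receptor, read 9.77 in Id2 KO and 11.22 in WT GFP+ cells (-1.44, adjusted p = 0.00469). Leaving out Id2 KO GFP+ replicate 3 raised that adjusted p to 0.0682. None of the genes in these lists was called between genotypes in CDPs.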

How the data were processed

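The authors deposited, per the submitters' processing notes, probe set values made with RMA in Affymetrix Expression Console, whose versions and settings are not given in the sources used here. The deposited values are a linear signal intensity per probe set, and log2 was taken first. Per the labels' protocols, biotinylated cDNA was made with an Affymetrix WT Pico kit. Of 28853 probe sets on the array, 21789 had a single gene symbol, and for each gene the brightest over 12 arrays was kept, which gave 19938 genes. The number of arrays limits the precision.

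The 6 group means were fitted together on 12 arrays in limma 3.58.1 in R 4.3.3 (empirical Bayes without trend, two-sided, 6 residual degrees of freedom). Benjamini-Hochberg adjustment ran over all genes within each of 10 comparisons. They were GFP+ cells against CDPs (3 genotypes), both knockouts against WT at either stage, the knockouts against each other in GFP+ cells, and 2 interactions that ask whether a knockout alters the stage difference. The procedure was checked on simulated data with independent noise on each array, which does not cover deviations shared between arrays.

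The members, the gene lists, the markers and the use of 12 arrays were chosen with earlier results of these data known. The 9 genes are named in every comparison, and from each list up to 4 called genes with the largest change. For genes of like pattern, the 3 with the highest Pearson r were taken. Cd28, Flt3 and Kit, and the individual marker genes, were named after their values were seen.

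Alternatives were all 15 arrays with and without a term for the 3 apart, the replicate number as a block, quantile normalization, centring on the 75th percentile, a dim filter (11479 genes), the mean of probe sets, trend and robust moderation, array weights, a block for the array with the higher or lower 75th percentile in each group (sets defined from the data), and each array left out in turn. The replicate numbers pair only part of the arrays: residual correlations of 21 same-numbered pairs ran from -0.63 to 0.68, with 10 below 0. Between same-numbered CDP arrays they were 0.53 to 0.68. Between same-numbered Batf3 KO and Id2 KO GFP+ arrays they were 0.48.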

Additional observations from a re-analysis of the deposited data

Results flagged for a closer look

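The step of Tnfsf8 between GFP+ cells and CDPs differed between Batf3 KO and WT by 1.20 on the log2 scale in the interaction test (adjusted p = 0.0406), with both Batf3 KO GFP+ arrays above either WT GFP+ array. The call ended in each of the 8 fits with an array left out (adjusted p 0.0514 to 0.289), with all 15 arrays and a term for the 3 apart (0.0782), with the replicate number as a block on 12 arrays (0.0594) and after centring on the 75th percentile (0.314).

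On the replicate 1 arrays of GFP+ cells, which entered none of the tests, 4 of the 9 genes had differences above WT in a knockout. In Batf3 KO these were 0.70 for Tnfsf8, 0.52 for Cd80 and 0.17 for Cd40, and in Id2 KO 0.04 for Icosl. Each is a difference between single arrays, and none was tested.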

How the results depend on the processing

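Comparisons are listed as WT, Batf3 KO and Id2 KO step, Batf3 KO and Id2 KO against WT in GFP+ cells, Id2 KO against Batf3 KO in GFP+ cells, and the Batf3 KO and Id2 KO interactions. The reported counts among the 9 genes were 5, 5, 3, 1, 1, 1, 1 and 0. On all 15 arrays, without a term or with the replicate block, every count was 0, and under that replicate block the Cd40 steps were -0.11 (Id2 KO), -0.017 (Batf3 KO) and -0.187 (WT). On the 12 arrays, where the replicate numbers pair only part of the groups, the replicate block gave 3, 5, 3, 2, 1, 2, 0 and 1. All 15 arrays with a term for the 3 gave 6, 6, 3, 1, 1, 1, 0 and 0. Centring on the 75th percentile gave 5, 5, 2, 2, 1, 1, 0 and 1, and the set as a block 7, 6, 6, 3, 2, 4, 2 and 2. Quantile normalization, the dim filter and trend with robust moderation each gave 1 for the Id2 KO interaction. With 1 array left out the counts ran 2 to 5, 4 to 5, 1 to 3, 1 to 1, 0 to 1, 1 to 1, 0 to 0 and 0 to 1. A lone array was then assumed to vary like the other groups. In CDPs the count was 0 in every setting run. The cause of these changes was not tested.

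Of the 17 called differences 9 kept the call with each array left out: Cd86 and Icosl in WT and Batf3 KO, Icosl in Id2 KO, Cd80 and Tnfsf8 in Batf3 KO, and Tnfsf8 between Batf3 KO and either other genotype. Of 73 uncalled differences 41 changed sign in at least 1 setting, and none of these was called with the opposite sign.

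Counts over all genes were 2212, 1432, 1359, 67, 361, 118, 19 and 64, with 10 (Batf3 KO) and 5 (Id2 KO) in CDPs. On 15 arrays they were 1 for the WT step and 0 elsewhere, and with the replicate block 25, 3, 0, 1, 2, 0, 0 and 0. Counts that moved by over 1.5 times were 29, 207, 8 and 20 with the term (Batf3 KO, Id2 KO, interactions), and 5 and 0 in CDPs; 555 and 120 with the replicate block on 12 arrays (Id2 KO, its interaction); 2217, 2239, 112, 626, 230 and 158 under quantile normalization; 248 with array weights (Id2 KO against Batf3 KO); and 4829, 3487, 3234, 250, 1212, 506, 42 and 373 with the set block, with 26 for Batf3 KO CDPs. With an array left out they ran 1183 to 1778, 642 to 827, 488 to 1111, 33 to 96, 120 to 305, 36 to 54, 7 to 41 and 21 to 91.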
